A study of Mus musculus with 2 samples.

Results

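Fc gamma receptors bind the constant part of immunoglobulin G and let macrophages take up and respond to antibody-coated particles. The genes described here are the 4 mouse Fc gamma receptors Fcgr1, Fcgr2b, Fcgr3 and Fcgr4, the adaptor genes Fcer1g and Tyrobp, and the kinase gene Syk. They were taken as every probe set of an Affymetrix mouse expression array whose only gene symbol in the platform annotation was one of these 7 names. This gave 12 probe sets of the 20380 with 1 symbol, and 7 genes of 12393. All 7 were measured, among 6818 measured genes.

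RNA came from RAW 264.7 cells, a virus-transformed mouse macrophage line, after 4 h with IFN-gamma (IFNg) at 1000 U/ml or with the same dose of IFNg together with adenosine at 300 uM. RNA of each treatment was pooled from 2 separate experiments and hybridised to 1 array, so there are 2 arrays in all and no replicate. Both groups received IFNg and no array without it was analysed here, so none of the values below is a response to IFNg itself. The study asked what adenosine does to gene expression in macrophages activated by IFNg.

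Activating Fc gamma receptors need the common gamma chain, the product of Fcer1g, for surface expression and signalling. This small membrane adaptor carries a tyrosine-based activation motif (ITAM), as does DAP12, the product of Tyrobp, which serves other myeloid receptors. Src-family kinases phosphorylate the motif after a receptor is cross-linked, and Syk then docks on it. Fcgr2b carries an inhibitory motif (ITIM) of its own instead, which recruits phosphatases that oppose the signal. Fcgr1, the receptor of highest affinity, is a classical IFN-gamma target gene.

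RefSeq promoter windows (GRCm38.p6, 250 bases before to 50 after an annotated start) were held for 6 of the 7 genes, not for Tyrobp. They are shown for the activating receptors, whose signals were all lower with adenosine, and for Fcer1g, whose signal after scaling was not. Capitals mark matches, on either strand, to TTCNNNGAA (the interferon-gamma-activated site, GAS), GAGGAA (a core bound by PU.1 and other ETS factors), GAAANNGAA (interferon-stimulated response element type) or TGACGTCA (the cAMP response element); no matches overlap.
Fcgr1, chr3:96293920-96294219, minus strand: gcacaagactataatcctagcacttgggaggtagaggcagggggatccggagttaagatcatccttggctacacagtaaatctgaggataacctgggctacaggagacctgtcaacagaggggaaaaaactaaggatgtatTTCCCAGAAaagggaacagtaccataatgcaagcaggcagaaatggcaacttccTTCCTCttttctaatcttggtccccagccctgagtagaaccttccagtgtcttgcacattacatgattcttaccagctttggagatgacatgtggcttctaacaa
Fcgr4, chr1:171018676-171018975, plus strand: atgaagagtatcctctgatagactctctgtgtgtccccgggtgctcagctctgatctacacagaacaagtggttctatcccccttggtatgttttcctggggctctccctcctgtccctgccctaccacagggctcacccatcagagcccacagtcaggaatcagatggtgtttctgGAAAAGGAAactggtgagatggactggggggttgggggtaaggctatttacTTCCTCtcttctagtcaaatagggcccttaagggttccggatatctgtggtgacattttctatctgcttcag
Fcgr3, chr1:171059354-171059653, minus strand: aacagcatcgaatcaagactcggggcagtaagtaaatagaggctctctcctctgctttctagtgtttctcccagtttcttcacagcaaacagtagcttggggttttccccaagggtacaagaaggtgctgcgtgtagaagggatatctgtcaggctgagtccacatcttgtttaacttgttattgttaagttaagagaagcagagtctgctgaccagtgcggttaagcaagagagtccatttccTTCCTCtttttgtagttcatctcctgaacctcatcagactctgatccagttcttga
Fcer1g, chr1:171234300-171234599, minus strand: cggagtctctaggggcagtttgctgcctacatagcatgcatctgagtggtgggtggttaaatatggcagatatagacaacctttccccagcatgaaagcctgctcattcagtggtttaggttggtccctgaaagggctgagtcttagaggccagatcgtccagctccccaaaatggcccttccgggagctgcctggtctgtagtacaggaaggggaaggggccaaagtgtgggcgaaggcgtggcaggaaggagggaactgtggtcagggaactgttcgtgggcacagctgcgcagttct

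The Fcgr1 window held the TTCNNNGAA match, which begins 109 bases before the start, and a GAGGAA match on the opposite strand 55 bases before it. A GAGGAA match also lay 22 bases before the Fcgr4 start and 6 bases before the Fcgr3 start shown, the farther upstream of its 2 annotated starts. The Fcgr4 window held in addition a GAAANNGAA match 73 bases before the start. Of all 32851 promoter windows, 8.3% held TTCNNNGAA, 28.3% GAGGAA, 8.56% GAAANNGAA and 1.79% TGACGTCA. Syk, whose windows are not shown, had a GAGGAA match 9 bases before 1 of its annotated starts. No window of the 6 genes held TGACGTCA, and those of Fcer1g and Fcgr2b held none of the 4 motifs. These matches describe letters in a short window and say nothing on occupancy.

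Deposited signals were lower on the adenosine array for most genes, with a median of 15.2 against 45.9 over 22626 gene probe sets. The median log2 ratio of probe sets with both deposited signals above 24.5 was -1.495. It was therefore removed by multiplying the adenosine array by 2.82, and signals are given on this scale unless called deposited. Control transcripts spiked into both hybridisations (18 probe sets) had a deposited median log2 ratio of -0.53. Whether the remainder is a difference in total messenger RNA, in labelling or in another step cannot be told apart here. A ratio is therefore relative to the array median. Low values were handled with a floor of 44.0, a convention set at percentile 50 of the scaled signals. The only error available came from the differences between the 2 brightest probe sets of one gene (2375 genes). It is given as the SD of the log2 ratio of a single probe set, 0.42 to 0.57 in 4 groups of genes by signal. It holds no spread between cultures or arrays, and no test was possible.

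All 4 receptors lay below the array median with adenosine and the adaptors and Syk above it, each gene read from its brightest probe set. The probe sets of Syk differ in direction, so its place above the median holds for that probe set only. With adenosine 2 of the 7 genes, Fcgr1 and Fcgr4, were at least 2-fold lower, beside 10.1% of all measured genes. None of the 7 was at least 2-fold higher, beside 4.52%. RNA was measured in bulk, so fewer expressing cells and less RNA per cell cannot be told apart. The median log2 ratio was -1.19 over the 4 receptors and 0.60 over the adaptors and Syk, beside -0.08 over all measured genes. By probe set, 7 of 7 for the receptors had a negative log2 ratio and 4 of 5 for the adaptors and Syk a positive one. Of these probe sets 4 read Fcgr2b and 3 read Syk, so the counts hold repeat readings of the same gene. Among all measured genes 56.0% had a negative log2 ratio. In the deposited values all 12 probe sets were lower on the adenosine array, so the positive ratios exist only relative to the other genes. On that scale 5 of the 7 genes were lower by 2-fold or more, beside 78.8% of all measured genes, and none was higher by as much, beside 0.141%.

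**Figure D1:**
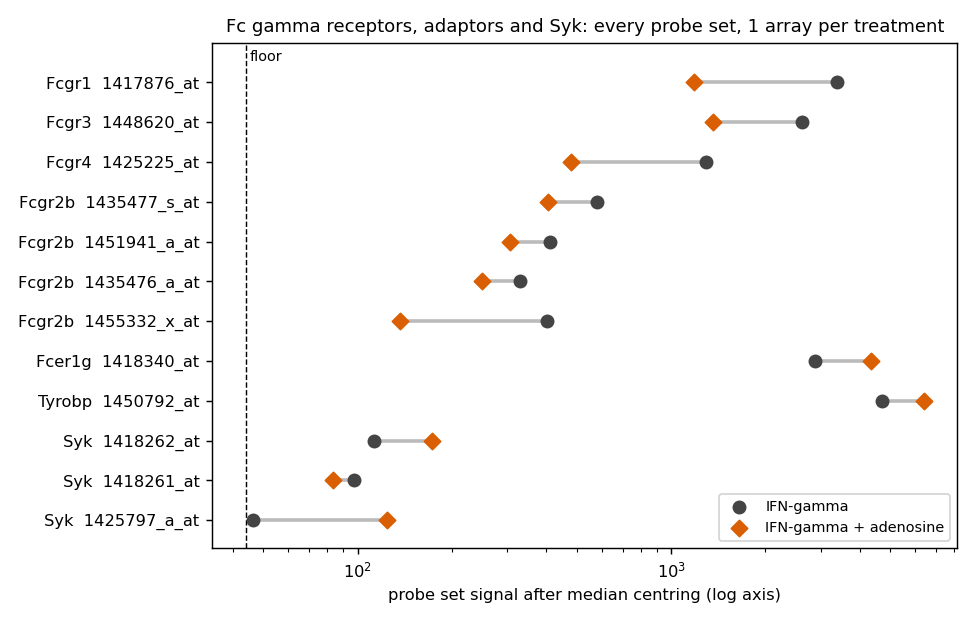
Signal (log axis) of each of the 12 probe sets on the IFN-gamma array (grey circles) and the IFN-gamma plus adenosine array (orange diamonds) after median centring, 1 array per treatment, with the floor of 44.0 as a dashed line. The orange diamond lies left of the grey circle for all 7 receptor probe sets and right of it for Fcer1g, Tyrobp and 2 of 3 Syk probe sets.

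Fcgr1 encodes the high-affinity receptor CD64, which binds monomeric immunoglobulin G. Its probe set (1417876_at) read 3388 with IFNg and 1181 with IFNg and adenosine. The signal with adenosine was thus 2.87-fold lower, a log2 ratio of -1.52 with a probe set SD of 0.42. Measured genes within 0.5 log2 units of its mean signal (413 genes) had a median log2 ratio of 0.06, so Fcgr1 lay -1.58 from genes of like brightness. Its deposited signals were 3388 and 419.

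Fcgr4 encodes a mouse receptor of intermediate affinity that binds IgG2a and IgG2b. Its probe set (1425225_at) read 1295 with IFNg and 479 with adenosine added, 2.70-fold lower (log2 ratio -1.43, probe set SD 0.52). Genes of like signal had a median of -0.10. Of the members past the 2-fold threshold, Fcgr4 was the nearer to it.

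Fcgr3 encodes the low-affinity activating receptor CD16. Signals of its probe set (1448620_at) were 2624 and 1365, 1.92-fold lower with adenosine and just short of the threshold (log2 ratio -0.94, probe set SD 0.42). Genes of like signal had a median of 0.03. Each activating receptor had 1 probe set with a single symbol, so no second reading of these 3 ratios is given. Probe sets with several symbols or none were not read.

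Fcgr2b, the only inhibitory receptor of the family, had 4 probe sets. The brightest (1435477_s_at) read 580 with IFNg and 405 with adenosine, a log2 ratio of -0.52, about the size of its probe set SD of 0.52. Another pair of probe sets gave -0.42 (1451941_a_at, 411 against 307) and -0.41 (1435476_a_at, 330.5 against 249). The fourth (1455332_x_at) stood apart at -1.56, with signals of 402 and 136. All 4 readings were below the array median, but they spanned 1.15 log2 units, and the fold was 1.33 to 1.43 by 3 of them and 2.95 by the other. The names of all 4 end in _s_at, _a_at or _x_at. Affymetrix uses these endings for probe sets that can match several transcripts, of the same gene or of others. Fcgr2b and Fcgr3 are close in sequence over their extracellular parts, so a share of Fcgr3 signal in these readings was not tested.

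The log2 ratio of Fcgr1 was -1.002 from that of Fcgr2b, with an SD of the difference of 0.67. That of Fcgr4 was -0.92 (SD 0.74) and that of Fcgr3 -0.43 (SD 0.67) from it. For Fcgr3 this lies within 1 SD of probe set scatter. For Fcgr1 and Fcgr4 the difference amounts to 1.495 and 1.24 SD. This SD holds no spread between cultures or arrays, so an unequal shift of activating and inhibitory receptors is not resolved for any of them. By its _x_at probe set, Fcgr2b would lie beside Fcgr1.

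Fcer1g, the common gamma chain gene, read 2881 with IFNg and 4358 with adenosine added (1418340_at). This is 1.51-fold higher, a log2 ratio of 0.60 with a probe set SD of 0.42. Genes of like signal (230 genes) had a median of 0.10, which leaves 0.50. The deposited signals, 2881 and 1546, run the other way.

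Tyrobp, the DAP12 gene, read 4701 and 6392 (1450792_at), 1.36-fold higher with adenosine (log2 ratio 0.44, probe set SD 0.42). The 148 other genes of like signal had a median of 0.36, so Tyrobp differed from them by only 0.08. With loess scaling, which removes the trend with brightness, the log2 ratio was 0.07 for Tyrobp and 0.38 for Fcer1g.

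**Figure D2:**
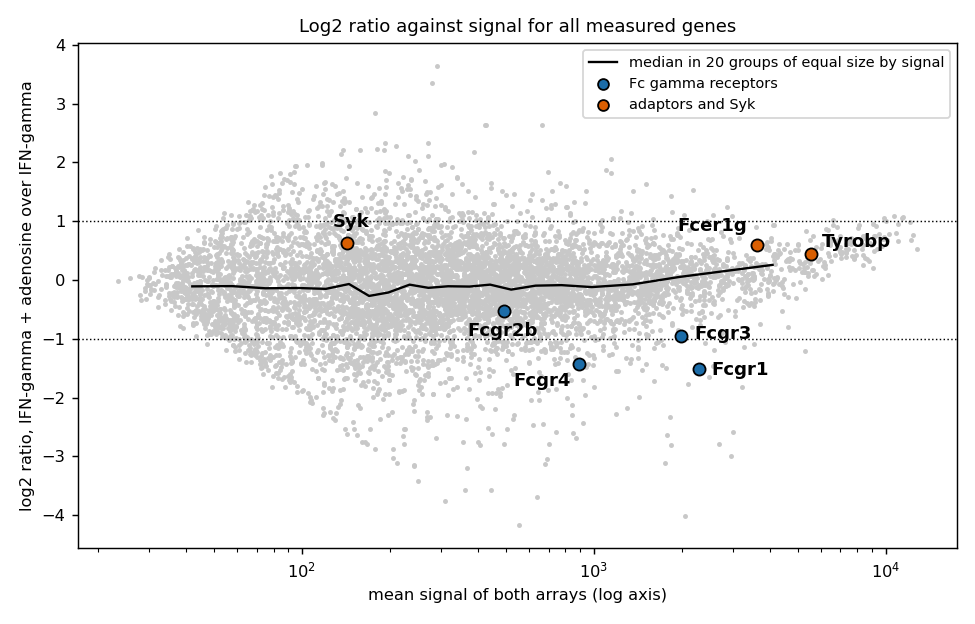
Log2 ratio of IFN-gamma plus adenosine over IFN-gamma against mean signal of both arrays (log axis) for 6818 measured genes (grey), with the 4 Fc gamma receptors in blue and Fcer1g, Tyrobp and Syk in orange; the black line joins medians of 20 equal groups by signal, and dotted lines mark 2-fold. Fcgr1 and Fcgr4 lie beyond the lower dotted line and Fcgr3 just inside it, while Tyrobp lies where bright genes in general are above 0.

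Syk had low signals and readings that did not match each other. Its brightest probe set (1418262_at) read 112 with IFNg and 173 with adenosine, a log2 ratio of 0.62 with a probe set SD of 0.57. The next (1418261_at) read 97.4 and 83.2 (log2 ratio -0.23). The dimmest (1425797_a_at) read 46.4, close to the floor, and 124, a log2 ratio of 1.42. With a range of 1.64 log2 units over 3 probe sets, no direction is given for Syk.

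Any factor that multiplies a whole array leaves the difference between log2 ratios of a pair of genes as it is. The log2 ratio of Fcgr1 was -2.12 from that of Fcer1g (SD of the difference 0.59), which is a 4.34-fold unequal change. Fcgr4 was -2.03 from Fcer1g (SD 0.67) and Fcgr3 was -1.54 from it (SD 0.59). Against Tyrobp the differences were -1.96, -1.88 and -1.39 for Fcgr1, Fcgr4 and Fcgr3. Loess scaling, which is not a single factor, gave -1.94, -1.72 and -1.35 against Fcer1g and -1.63, -1.41 and -1.05 against Tyrobp. Under these scalings each activating receptor gene was thus lower with adenosine relative to both adaptor genes. Such a difference does not show that the adaptor genes themselves were unchanged.

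**Figure D3:**
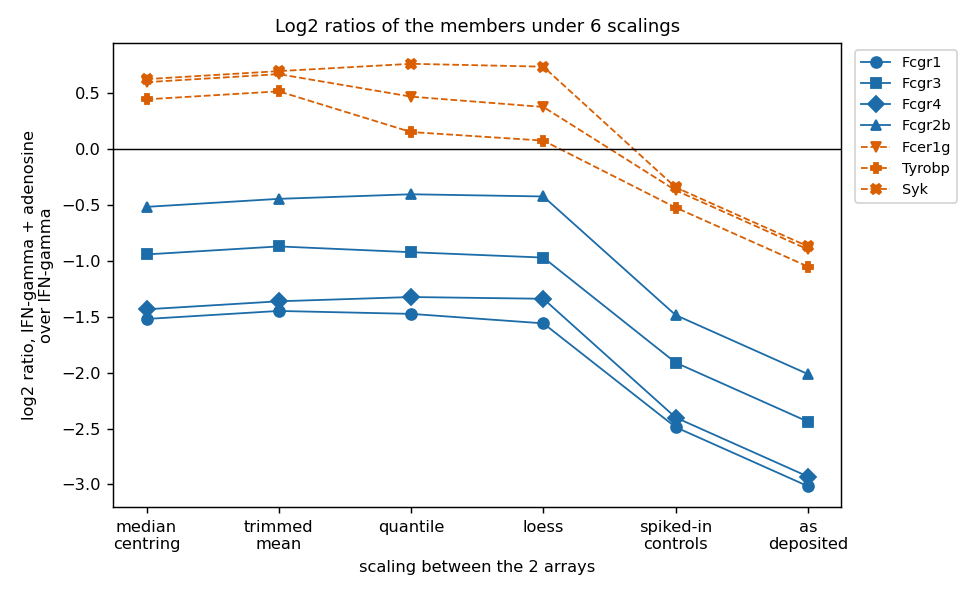
Log2 ratio of each of the 7 genes (brightest probe set) under 6 ways of scaling the 2 arrays; receptors are blue with solid lines, Fcer1g, Tyrobp and Syk orange with dashed lines, and lines only join readings of one gene. Fcgr1 runs from -1.45 to -3.02 and Fcer1g from 0.67 to -0.90, and every receptor lies below Fcer1g, Tyrobp and Syk under each scaling.

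In gene order on mouse chromosome 1 (RefSeq, GRCm38.p6), Fcgr2b, Fcgr4 and Fcgr3 follow each other with no other protein-coding gene between them, and 7 such genes separate Fcgr3 from Fcer1g. Of these 7, 5 were on the array and 2 measured. Sdhc, a subunit of succinate dehydrogenase, had a log2 ratio of 0.43 and Tomm40l one of 0.25. The lower ratios in this stretch belonged to the 3 receptor genes. Fcgr1 lies on chromosome 3, away from the cluster, and its ratio was close to that of Fcgr4.

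With 2 arrays, likeness of pattern comes down to 1 ratio. Among 887 measured genes within 1 log2 unit of the mean signal of Fcgr1, the nearest ratios were those of Slfn4 (-1.53), Tnfaip2 (-1.502) and Mrpl17 (-1.54). For Fcgr4 (1958 genes) they were those of Rasa1 (-1.43), Pla2g4a (-1.44) and Gbp3 (-1.42). Of the IFN-gamma-responsive reference genes, Irf8 had a log2 ratio of -2.99, Cxcl9 one of -2.64 and Irf1 one of -0.25, so Fcgr1 lay between Irf1 and Cxcl9. Spi1, which encodes PU.1, a regulator of the myeloid lineage, read 1642 and 2035 (log2 ratio 0.31).

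The other genes of the pathway were read from 9 lists holding 136 genes, of which 110 were on the array with a single symbol and 82 measured. At least 2-fold lower were 14 of the 82, against 10.1% of all measured genes, and at least 2-fold higher were 3, against 4.52%. The median log2 ratio was -0.17, beside -0.08 over all measured genes.

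Of the 6 Src-family kinases listed, which phosphorylate the ITAM, 4 were on the array with a single symbol and 2 were measured. Fgr, a myeloid member, was 3.26-fold lower (305 against 93.6) and Fyn had a log2 ratio of -0.60, and -1.47 by its second probe set. The adaptor list had 13 measured members, 4 of them lower by 2-fold or more and 1 higher. Crk, an adaptor of actin remodelling, was 4.91-fold lower (888 against 181), or -1.71 on the log2 scale by its second probe set. Lcp2, which encodes the Syk substrate SLP-76, was 2.07-fold lower (2241 against 1082), with a second probe set at -1.02. Ptpn12 was 2.23-fold lower, but -0.66 by its second probe set, and Sh2b2 was at least 2.62-fold lower, with the adenosine signal below the floor. Shc1, an adaptor that leads to Ras, was 2.26-fold higher (second probe set 1.47). Grb2, Crkl and Cbl had log2 ratios of -0.03, 0.26 and -0.30, but 1.94, 1.54 and 1.40 by their second probe sets. The counts for the adaptor list thus depend on the probe set read.

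Downstream of Syk, the lipid and calcium list had 1 of 12 measured genes at least 2-fold lower and none higher, with a median of -0.41. This was Pla2g4a, the cytosolic phospholipase A2 gene, at 2506 and 924 (2.71-fold lower). The other extreme was Pik3r1 at 0.46, from a signal just below the floor. Plcg2 and Btk, a phospholipase and a kinase used by ITAM receptors, had log2 ratios of -0.41 and -0.58. Pik3cd was at 0.08, but at -1.15 by its second probe set. In the list from Syk to NF-kB and MAPK, none of 3 measured genes reached 2-fold, and they ran from -0.83 for Map2k1 to 0.90 for Sos1, whose second probe set was just past 2-fold (1.004).

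The phagocytic cup and actin list was centred near 0, with a median of 0.01 over 21 genes (-0.17 with loess scaling), 2 at least 2-fold lower and 2 higher. Vav3, an exchange factor for Rac, was 2.88-fold lower (294 against 102), with a second probe set at -2.01. Wasf2, which activates the Arp2/3 complex, was 2.67-fold lower. Arpc4, a subunit of that complex, was 2.15-fold higher (second probe set 0.90) and the dynamin gene Dnm2 2.05-fold higher (second probe set 0.52). In the deposited values these and Shc1, the 3 higher genes of the lists, had negative log2 ratios. The small GTPase genes Rac1, Rac2 and Cdc42 had log2 ratios of 0.05, 0.77 and 0.39.

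Among inhibitory phosphatases and adaptors, 8 of 10 measured genes had negative log2 ratios, beside 56.0% of all measured genes, and 2 were at least 2-fold lower, with a median of -0.68. Ptpn6, the phosphatase SHP-1, was 2.25-fold lower (1961 against 873), and -0.69 by its second probe set. Pag1, a membrane adaptor that holds the kinase Csk, was 2.10-fold lower, but just short of 2-fold with loess scaling (log2 ratio -0.99). Inpp5d, the lipid phosphatase SHIP-1 that docks on Fcgr2b, read 600 and 315, a log2 ratio of -0.93, but 0.17 by its second probe set. Ptpn11, also among the 8, was at -0.34, but at 1.56 by its second probe set. Csk itself was at the other end, at 0.62.

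**Figure D4:**
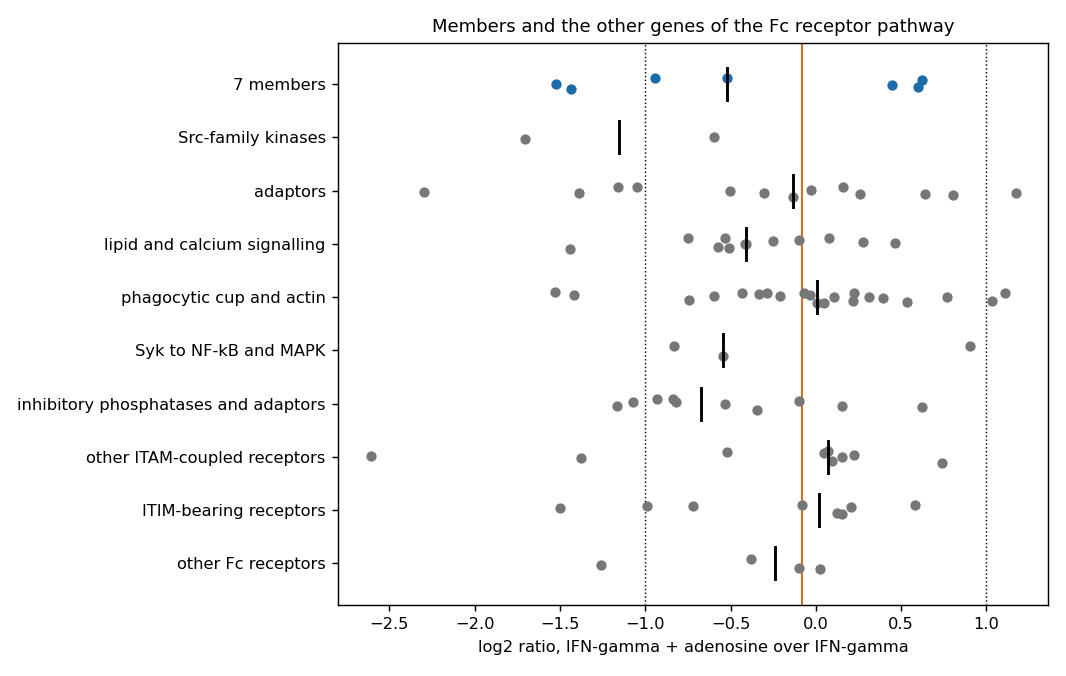
Log2 ratio of IFN-gamma plus adenosine over IFN-gamma for the 7 genes (blue) and for the measured genes of 9 Fc receptor pathway lists (grey), 1 point per gene; black bars are list medians, the orange line is the median of all measured genes (-0.08) and dotted lines mark 2-fold. By their brightest probe sets, the 7 genes split into 4 on the lower side and 3 on the higher (Syk among them, whose probe sets differ in direction), and the list medians run from -1.15 for 2 Src-family kinases to 0.07 for other ITAM-coupled receptors.

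The list of other ITAM-coupled receptors, which also holds the DAP10 adaptor gene Hcst, had a median of 0.07 over 9 measured genes (-0.02 with loess scaling), and 2 were at least 2-fold lower. Clec4e and Clec4d, lectin receptors that pair with the Fcer1g product, had log2 ratios of 0.09 (2530 against 2697) and 0.15 (2965 against 3293). Clec4n, which also pairs with it, was at -0.52. Trem2, a partner of DAP12, was at 0.05 (1655 against 1710). In contrast Clec5a, another DAP12 partner, was 2.60-fold lower (1313 against 506). Clec7a, the beta-glucan receptor Dectin-1, which recruits Syk through a motif of its own, was 6.10-fold lower (1464 against 240). The highest ratio was that of Cd300ld, 0.74. Clec5a and Clec7a were each read by 1 measured probe set.

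Of the receptors with inhibitory motifs, 1 of 8 measured was at least 2-fold lower. This was Cd300lf, at 224 and 79.2 (2.83-fold), and Cd300a was highest at 0.58. Among other Fc receptors and antibody genes, 4 of 11 on the array were measured. Fcgrt, the neonatal Fc receptor that recycles antibody, read 72.3 and 73.6 (log2 ratio 0.03). Ighm, the immunoglobulin mu heavy chain gene, was 2.39-fold lower (658 against 275, second probe set -1.45). Fcer1a and Ms4a2, the other chains of the mast cell IgE receptor, were below the floor on both arrays.

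Of 13 macrophage markers 12 were measured, Marco being below the floor. Csf1r read 5552 and 5005 and Cd68 3978 and 6000. Summed marker signals were 33709 and 46058. By brightest probe sets Lyz2 alone reached 2-fold (6444 against 13361), though not with loess scaling (log2 ratio 0.50). Cebpb was at 0.94, but at 1.64 by its second probe set. The median log2 ratio of the 12 markers was 0.16 (0.04 with loess scaling), and 5 were below 0. Mertk (-0.86, with the adenosine signal below the floor), Mpeg1 (-0.83) and Cebpa (-0.76) were the lowest. Of 35 markers on the array for T, NK, B, mast, granulocyte, dendritic and fibroblast cells, Klrk1 alone was measured (52.5 with IFNg), and their sums per cell type ran from 11.3 to 64.8 with IFNg and from 2.82 to 66.8 with adenosine. Cd3e, Ncr1, Cd79a and Ms4a2, defining genes of T, NK, B and mast cells, were all below 10 on both arrays.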

How the data were processed

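The authors deposited an intensity on a linear scale for each of 22690 probe sets on each array, and GCOS, the Affymetrix software, is named in the submitters' processing notes; its version, its signal computation and any scaling are each not given in the sources used here. After leaving out 64 control probe sets, 20380 of 22626 carried 1 symbol, 691 several and 1555 none; symbols were updated through Entrez identifiers to RefSeq (20351 matched). The adenosine array was multiplied by 2.82, which brings to 0 the median log2 ratio of gene probe sets whose signals both exceeded 24.5, the median deposited signal. Signals under the floor of 44.0 were raised to it, and a gene counted as measured if its brighter array reached the floor. A gene was read from its brightest probe set. The spread came from differences between probe sets of one gene, as their root mean square divided by the square root of 2. Loess used a span of 0.3. With 1 array per treatment no test was run. The calculation was tested on simulated arrays. Members and lists were chosen with earlier results of these data known; from the pathway lists, every gene past 2-fold and the extremes of each list are named, and further examples were named for their role after their values were seen. A few planned genes are not reported here. Python 3.11.15, pandas 2.3.3 and statsmodels 0.14.6 were used. Alternatives were 5 other scalings, other floors, a pseudocount, other uses of probe sets and other fold thresholds.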

Additional observations from a re-analysis of the deposited data

How the results depend on the processing

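No paired analysis was possible because there is only 1 array for each treatment, which also bars leaving one out. Scaling sets the level of every ratio. In the values as deposited the log2 ratios were -3.02 for Fcgr1, -2.44 for Fcgr3, -2.93 for Fcgr4, -2.01 for Fcgr2b, -0.90 for Fcer1g, -1.05 for Tyrobp and -0.87 for Syk, with 5 of the 7 genes, 67 pathway genes and 5605 genes at least 2-fold lower (78.8% of measured genes) and 0, 0 and 10 higher. With the spiked-in controls they were -2.49, -1.91, -2.40, -1.49, -0.37, -0.52 and -0.34 in the same order. At least 2-fold lower on that scale were 4 of the 7, 46 pathway genes and 3538 of 6975 measured genes, with 0, 0 and 33 higher. Lower genes made up 69.2% of the 2-fold calls with the main scaling, 99.8% as deposited and 99.1% with the spiked-in controls. The differences of Fcgr1, Fcgr4 and Fcgr3 from Fcer1g stayed between -2.12 and -1.94, -2.03 and -1.72, and -1.54 and -1.35 under 10 alternatives. Only quantile scaling, loess scaling and the pseudocount could move them. The other alternatives leave them as they are by construction, since each of these genes has 1 unshared probe set well above the floor. Quantile, loess and trimmed mean scaling, the floors, the pseudocount and the choices of probe sets left Fcgr1 and Fcgr4 as the 2 genes past 2-fold. A lower floor, at the 33rd percentile, left 599 of 9177 measured genes and 5 pathway genes higher. A floor at the 67th gave 328 lower and 133 higher of 5062 measured genes and 9 lower pathway genes, and lowered the Syk ratio to 0.07. The mean of all probe sets gave 9 lower pathway genes. At 1.5-fold, 2 of the 7 genes (Fcer1g and Syk), 9 of 82 pathway genes and 879 of 6818 measured genes were higher. Lower by as much were 3, 24 and 1489. At 3-fold none of the 7 was lower (0), with 3 pathway genes and 202 genes lower, and 0 and 67 higher. Without probe sets whose names end in _s_at, _a_at or _x_at, Fcgr2b has no value. Precision is limited by there being 2 arrays, and Syk is limited by its low signal.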
